A study of Mus musculus with 4 samples.

Results

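The gene module described here consists of 43 genes of the contractile machinery of muscle, out of 54021 gene symbols in the count table of reconstituted ovaries (rOvaries). The members were chosen by gene symbol with the fold changes of INK128 against control in these same libraries in view, *Tnnt2* and *Tpm2* being among the largest rises, so the values of that comparison are given for the members as a description. No p-value is given for a member, and a call of a member marks a threshold passed and is no independent test. The members comprise 12 smooth muscle genes, 11 cardiac and slow-fibre genes, 12 skeletal genes and 8 genes shared among muscle types. The slow skeletal troponins *Tnnt1* and *Tnni1* were placed with the skeletal genes. The rOvaries were grafts formed from primordial germ cells and gonadal somatic cells of fetal C57BL/6 donors, from gonads reported as female and carrying actin-GFP, placed under the kidney capsule of bilaterally ovariectomized, young adult G2 Terc-/- females on a C57BL/6 background. Terc-/- mice lack the RNA component of telomerase, and both groups share this recipient genotype. One group received INK128, an inhibitor of the kinase mTOR, in the drinking water at 0.75 µM per g according to the labels, and the controls received none. The study's methods give the dose differently, as a concentration in the water, so the dose is uncertain. All grafts were harvested 1 month after transplantation, and polyA RNA was sequenced from 2 INK128-treated rOvaries (replicates 1 and 2) and 2 controls (replicates 1 and 3). Whether each library came from a single animal was not stated, so the spread between replicates may be partly technical, and graft, overgrown kidney and host vessels cannot be separated in bulk RNA.

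Muscle contracts when myosin pulls on actin filaments. In striated muscle the pull is switched by calcium through the troponin complex, which moves tropomyosin along the actin filament, whereas in smooth muscle calcium acts through calmodulin and myosin light chain kinase, which phosphorylates the myosin regulatory light chain. In the ovary, smooth muscle cells lie in the theca externa around growing follicles and in the walls of blood vessels, and pericytes and myofibroblasts express part of the same genes.

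The counts summed to between 19130209 and 23029089 per library, and 3 counts, used as a floor for counting error only, corresponded to between 0.127 and 0.161 CPM (counts scaled to library size with TMM factors). Between libraries, log2 CPM of the 11758 genes averaging above 10 CPM correlated with r = 0.980 between the INK128 libraries and r = 0.806 between the controls. Control replicate 1 held 1021 counts from 4 Y-linked genes, against at most 2 in any other library, although the methods report female gonads, and carried Sertoli cell markers (summed CPM 2093, against 98 to 224 elsewhere). Control replicate 3 was low in oocyte markers (summed CPM 61.4, against 793 to 1088) and high in theca and luteal markers (11302, against 1045 to 5516). The members are therefore given per library, with each fold change also computed without each library. A gene was called when edgeR's adjusted p was below 0.05 and the fold change above 1.5. The lowest adjusted p of any gene was 0.0464, so every call lay close to that threshold.

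To show the sequence around the annotated starts, the stretch before the RefSeq start (up to 250 bases, cut before the first base annotated as UTR in GENCODE M21) is printed for those of the 6 members called by edgeR that kept at least 200 bases (GRCm38.p6, strand of the gene, 5′ to 3′). Where a gene has several RefSeq starts, the one nearest its 5′ end was taken. *Tnnt2* lies at chr1:135836084-135836333 (plus strand), *Myl9* at chr2:156775214-156775419 (plus strand), *Cnn1* at chr9:22099003-22099215 (plus strand) and *Myl6* at chr10:128493887-128494136 (minus strand). Capitals mark the M-CAT element (CATTCC or its complement GGAATG), which TEAD factors recognise, in *Tnnt2*, and the CArG box, which serum response factor recognises, in *Myl9*.
Tnnt2: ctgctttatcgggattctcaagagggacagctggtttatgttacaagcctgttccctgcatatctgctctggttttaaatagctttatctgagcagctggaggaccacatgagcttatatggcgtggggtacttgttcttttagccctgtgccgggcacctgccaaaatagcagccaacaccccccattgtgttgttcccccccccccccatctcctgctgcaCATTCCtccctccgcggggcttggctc
Myl9: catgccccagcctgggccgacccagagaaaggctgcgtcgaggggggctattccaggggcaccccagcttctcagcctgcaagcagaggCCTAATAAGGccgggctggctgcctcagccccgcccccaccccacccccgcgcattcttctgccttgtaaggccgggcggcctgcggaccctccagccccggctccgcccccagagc
Cnn1: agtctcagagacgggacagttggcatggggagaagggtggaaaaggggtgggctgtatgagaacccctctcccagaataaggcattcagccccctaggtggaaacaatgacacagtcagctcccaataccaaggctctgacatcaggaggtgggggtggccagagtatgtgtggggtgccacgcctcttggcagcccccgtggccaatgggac
Myl6: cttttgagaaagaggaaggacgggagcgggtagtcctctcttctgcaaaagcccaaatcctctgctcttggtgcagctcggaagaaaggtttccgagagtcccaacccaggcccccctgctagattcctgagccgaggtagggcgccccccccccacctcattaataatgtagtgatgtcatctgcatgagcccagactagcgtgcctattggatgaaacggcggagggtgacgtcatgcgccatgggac
The match began 27 bases before the RefSeq start in *Tnnt2* and 161 bases before it in *Myl9*, whose printed stretch ends 44 bases short of that start. The *Cnn1* and *Myl6* windows held neither motif. The windows of *Acta2* and *Tpm2* kept 33 and 39 bases and are not printed. Both RefSeq starts of *Myl6* lie inside the gene as GENCODE M21 annotates it, and the CArG box counted for it below lies before the start further inside, which is not printed.

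Of the 43 members, 38 had a RefSeq window. Whole windows of 250 bases, annotated UTR included, were searched for exact motifs, and a gene was counted when any of its windows held one. On both strands, an M-CAT element occurred in 16 of the 38 (42.1%), compared with 14.4% of all 27025 genes with such a window. By muscle type it occurred in 5 of 9 smooth muscle members, 6 of 11 cardiac and slow-fibre members, 4 of 10 skeletal members and 1 of 8 shared members. A CArG box occurred in 7 of the 38 (18.4%, against 1.62% of all genes), namely *Acta1*, *Actc1*, *Myh4*, *Myl3*, *Myl6*, *Myl7* and *Myl9*. Of these 7, only *Myl6* and *Myl9* had a mean CPM above 10. A MEF2 site occurred in 4 of the 38 (10.5%, against 3.42%), *Myh1*, *Myh4*, *Synpo2* and *Ttn*. The motifs were read as letters in the window, and they were present both in members with high and in members with near-zero counts.

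Smooth muscle genes carried most of the members' reads in the rOvary, and most of them were higher with INK128. By level, 20 of the 43 members had a mean CPM above 10, 9 lay between 1 and 10, and 14 lay below 1. All 12 smooth muscle genes, 2 cardiac genes (*Tnnt2* and *Tnni3*) and 6 shared genes passed 10 CPM, and no skeletal gene did. Among the 20, 18 had both INK128 libraries above both controls and 0 had both below, in a table where 34.5% of the 11758 genes lay above and 34% below. Among the 29 with a mean CPM above 1, 23 lay above and 2 below, beside 30.9% and 35.3% of the 17631 genes at that level. edgeR called 6 of the members higher (*Acta2*, *Myl9*, *Cnn1*, *Tnnt2*, *Tpm2* and *Myl6*) and 0 lower, beside 3.18% of all genes called higher and 3.19% called lower, and DESeq2 on the same genes called 15 higher and 0 lower beside 13.6% and 15.1%. Scaling by library totals changed the whole-table calls from 374 higher and 375 lower to 290 and 580, while the members' calls stayed at 6 higher and 0 lower. Fits without a library keep 1 library in a group, so the members' calls in them are not given. The counts above describe genes listed for this comparison, and nothing is read from their excess over the background. In bulk RNA, fewer cells of a type and less RNA per cell cannot be told apart.

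**Figure D1:**
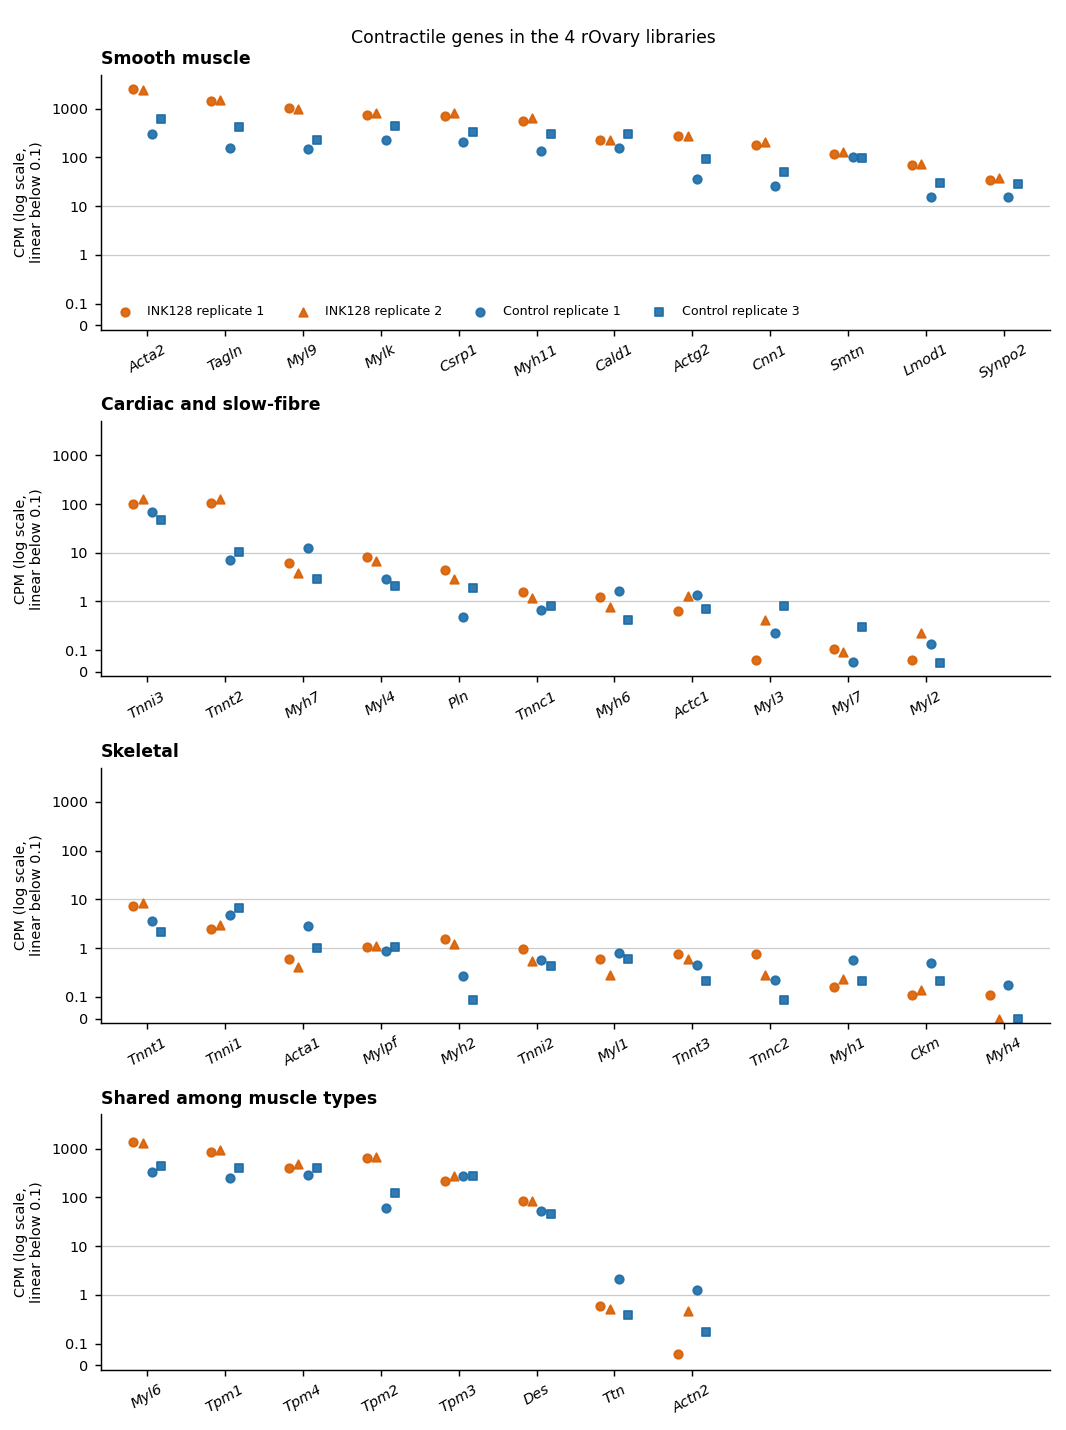
CPM of the 43 members in each of the 4 libraries (y axis, logarithmic above 0.1 CPM and linear below), by muscle type and ordered by mean level; orange marks INK128 and blue Control. The orange points lie above the blue in most smooth muscle and shared genes, while the skeletal genes stay below 10 CPM in every library.

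Smooth muscle α-actin, *Acta2*, had the highest level per kb of the smooth muscle members, at 1215 CPM per kb with INK128 and 226 CPM per kb in controls (means of 2). It measured 2559 and 2386 CPM with INK128 and 308 and 612 CPM in control replicates 1 and 3. The groups did not overlap, and the means of 2472 ± 122 and 460 ± 215 CPM (SD, n = 2) gave a log2 fold change of 2.43 (standard error 0.39). The enteric γ-actin, *Actg2*, measured 270 and 280 CPM against 35.5 and 91 CPM, a log2 fold change of 2.12 (standard error 0.49). In both actins the controls were further apart than the INK128 libraries, and control replicate 1 was the lowest library.

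The thick-filament genes of smooth muscle were also higher with INK128, the order of heavy and light chain depending on the length correction. *Myl9*, the regulatory light chain whose phosphorylation starts contraction, measured 1046 and 969 CPM against 149 and 230 CPM, a log2 fold change of 2.41 (standard error 0.28). *Myh11*, the smooth muscle myosin heavy chain, measured 545 and 631 CPM against 133 and 295 CPM, a log2 fold change of 1.46 (standard error 0.42). *Mylk*, the kinase that phosphorylates *Myl9*'s product, measured 743 and 809 CPM against 229 and 432 CPM, a log2 fold change of 1.23 (standard error 0.35). The groups were separate for all 3. Without length offsets *Myh11* and *Mylk* had lower fold changes than *Myl9*, whereas with coding transcript length offsets *Myh11* was at 2.04 and *Myl9* at 1.87.

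Of the smooth muscle genes whose products associate with actin, *Tagln*, *Cnn1*, *Lmod1* and *Csrp1* were higher in both INK128 libraries than in both controls, and edgeR called *Cnn1* among them. *Tagln*, encoding transgelin, an actin cross-linker and early marker of the lineage, measured 1432 and 1528 CPM against 158 and 426 CPM, a log2 fold change of 2.34 (standard error 0.52). *Cnn1*, encoding calponin, measured 179 and 211 CPM against 25.5 and 49.5 CPM, a log2 fold change of 2.38 (standard error 0.37). *Lmod1*, a leiomodin that nucleates actin filaments, measured 69.2 and 73.3 CPM against 15.5 and 30.1 CPM, a log2 fold change of 1.64 (standard error 0.36). *Csrp1*, a LIM-domain protein, measured 705 and 800 CPM against 209 and 331 CPM, a log2 fold change of 1.48 (standard error 0.29). For these 4 genes too the groups did not overlap.

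The other 3 smooth muscle members had the lowest fold changes of the group without length offsets, with which *Csrp1* (1.0 and 1.19) fell below *Synpo2* (1.24 and 1.34). *Synpo2*, encoding a Z-disc and dense-body protein, measured 33.7 and 36.9 CPM against 15.6 and 28 CPM (log2 fold change 0.69, standard error 0.34). *Smtn*, encoding smoothelin, measured 115 and 131 CPM against 101 and 98.9 CPM (log2 fold change 0.30, standard error 0.17). *Cald1*, encoding caldesmon, which has forms in smooth muscle and in other cells, measured 232 and 229 CPM between the 2 control values of 156 and 297 CPM (log2 fold change 0.03, standard error 0.34). Thus the smooth muscle group ranged from 0.03 to 2.43, with a median of 1.56, while the median of all genes with a mean CPM above 1 was -0.08.

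By the median log2 difference the controls were furthest apart in this group. Single cardiac members such as *Myh7* (12.7 and 2.83 CPM in control replicates 1 and 3) differed by a larger ratio. All but 1 of the 12 smooth muscle members were higher in control replicate 3 than in control replicate 1, with a median log2 difference of 0.94, compared with 0.11 between the INK128 libraries. The exception was *Smtn*. Without control replicate 3 the median fold change of the group was 2.18, and without control replicate 1 it was 1.21. Removing either INK128 library left it at 1.62 and 1.49. Without control replicate 1 and without control replicate 3, *Tagln* was at 1.80 and 3.23, *Actg2* at 1.59 and 2.95 and *Myh11* at 0.99 and 2.15. Summed over the 12 genes, the level was 7928 and 8085 CPM with INK128, and 1534 and 2921 CPM in control replicates 1 and 3.

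The cardiac and slow-fibre members split into *Tnnt2* and *Tnni3*, which were well detected, and 9 genes with a mean CPM below 10. *Tnnt2*, cardiac troponin T, which anchors troponin to tropomyosin, measured 105 and 126 CPM with INK128 against 7.17 and 10.2 CPM. Its group means of 115 ± 15.5 and 8.69 ± 2.14 CPM (SD, n = 2) differed 13.3-fold, a log2 fold change of 3.73 (standard error 0.27). This was the highest fold change of any gene called higher, and ranked 4 among all genes with a mean CPM above 10. *Tnnt2* passed the filter at 10 CPM through the INK128 libraries, and its fold change ranged from 3.50 to 4.01 when each library was left out. *Tnni3*, cardiac troponin I, the inhibitory subunit, measured 102 and 124 CPM against 69.4 and 47.4 CPM, a log2 fold change of 0.95 (standard error 0.26). The groups were separate in both genes. *Tnnc1*, the calcium-binding subunit of slow and cardiac troponin, was at 1.56 and 1.2 CPM against 0.664 and 0.801 CPM, from 15 to 29 counts per library. Per kb, *Tnnc1* averaged 1.91 and 1.02 CPM per kb with and without INK128, far below the 124 and 64 CPM per kb of *Tnni3*.

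*Myl4* and *Pln* lay between 1 and 10 CPM on average. *Myl4*, the atrial and embryonic essential light chain, measured 8.32 and 6.67 CPM against 2.83 and 2.07 CPM (log2 fold change 1.66, standard error 0.42, from the fit of genes with a mean CPM above 1, as for all members between 1 and 10 CPM). *Pln*, phospholamban, which inhibits the calcium pump of the sarcoplasmic reticulum, measured 4.51 and 2.9 CPM against 0.487 and 1.9 CPM (log2 fold change 1.68, standard error 0.81). In both the groups were separate, on 11 to 64 counts per control library. *Pln* was at 1.01 without control replicate 1 and at 2.96 without control replicate 3.

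The cardiac heavy chains showed no such separation. *Myh7*, the slow or β heavy chain, measured 6.07 and 3.82 CPM between the controls at 12.7 and 2.83 CPM (log2 fold change -0.60, standard error 0.78). *Myh6*, the α heavy chain, measured 1.23 and 0.782 CPM between 1.68 and 0.422 CPM (log2 fold change -0.01, standard error 0.88). In both, control replicate 1 was the highest and control replicate 3 the lowest library, and the sign depended on the control left out, *Myh7* being at 0.85 without control replicate 1 and -1.31 without control replicate 3, and *Myh6* at 1.29 and -0.69. *Actc1*, cardiac actin, ranged from 12 to 30 counts over the 4 libraries with overlapping groups. The ventricular light chains *Myl2* and *Myl3* and the atrial *Myl7* had between 1 and 19 counts, at which no difference was detectable. Over the 7 cardiac and slow-fibre members with a mean CPM above 1 the median fold change was 0.96, the value of *Tnnc1*. That gene passed the filter only through the INK128 libraries (mean 1.38 CPM, against 0.733 CPM in controls).

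Skeletal muscle genes were low in every library, and their directions were mixed. *Tnnt1*, slow skeletal troponin T, was at 7.41 and 8.51 CPM against 3.59 and 2.11 CPM (log2 fold change 1.54, standard error 0.44). *Tnni1*, slow skeletal troponin I, went the other way, at 2.47 and 3.04 CPM against 4.74 and 6.7 CPM (log2 fold change -1.0, standard error 0.43). *Acta1*, skeletal α-actin, was at 0.59 and 0.414 CPM against 2.79 and 1.01 CPM, from 9 to 63 counts (log2 fold change -1.86, standard error 0.79, with -0.96 without control replicate 1 and -2.42 without control replicate 3). *Mylpf*, the fast regulatory light chain, had 20 to 25 counts in every library (log2 fold change 0.22, standard error 0.60). Hence 2 of the 4 skeletal members above 1 CPM had both INK128 libraries higher and 2 had both lower, and their median was -0.39. Of these, *Acta1* passed that filter only through the controls (mean 1.9 CPM, against 0.502 CPM with INK128). The median also includes the slow-fibre *Tnnt1* and *Tnni1*.

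The remaining 8 skeletal genes had a mean below 1 CPM. *Myh2*, a fast heavy chain, had 29 and 27 counts with INK128 and 6 and 2 in controls, and was the clearest separation among them. *Tnnt3* had 14 and 13 counts against 10 and 5, and *Tnnc2* had 14 and 6 against 5 and 2. *Ckm*, the muscle creatine kinase, had 2 and 3 counts against 11 and 5. *Tnni2*, *Myl1*, *Myh1* and *Myh4* had 0 to 18 counts, with overlapping groups. Summed over the 12 genes, the skeletal group measured 16.5 and 16.4 CPM with INK128 and 15.5 and 12.7 CPM in controls.

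Among the members shared by muscle types, *Tpm2* differed most. *Tpm2*, β-tropomyosin, measured 641 and 679 CPM against 60.7 and 121 CPM. The means of 660 ± 26.2 and 90.8 ± 42.7 CPM (SD, n = 2) gave a log2 fold change of 2.86 (standard error 0.39). *Tpm1*, α-tropomyosin, measured 840 and 944 CPM against 249 and 407 CPM (log2 fold change 1.44, standard error 0.30). The groups did not overlap in either gene. The tropomyosins that are mainly cytoskeletal behaved differently, with *Tpm4* at 395 and 473 CPM against 293 and 391 CPM (log2 fold change 0.34, standard error 0.23). *Tpm3* overlapped, at 214 and 272 CPM against 272 and 270 CPM (log2 fold change -0.16, standard error 0.20).

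*Myl6*, the essential light chain of smooth muscle and non-muscle myosin, measured 1358 and 1285 CPM against 337 and 430 CPM, a log2 fold change of 1.79 (standard error 0.21). *Des*, desmin, the intermediate filament of muscle, measured 82.3 and 83.2 CPM against 53.1 and 44.5 CPM (log2 fold change 0.76, standard error 0.18). The giant sarcomere protein gene *Ttn* had 11 counts in each INK128 library against 48 and 9, and the Z-disc α-actinin gene *Actn2* had 1 and 10 against 29 and 4. Both sarcomere genes were highest in control replicate 1 and overlapped between the groups.

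**Figure D2:**
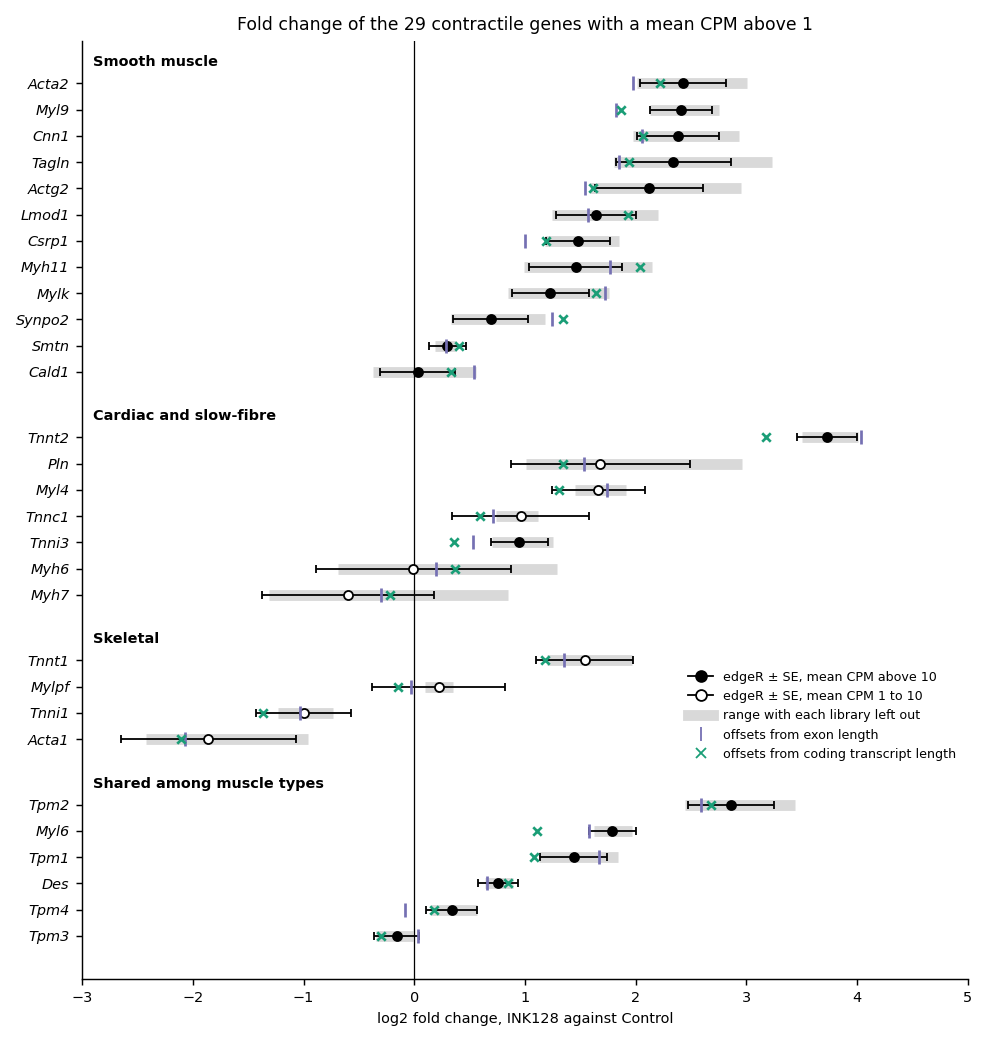
Log2 fold change of INK128 against Control for the 29 members with a mean CPM above 1 (x axis), with edgeR standard errors; grey bars span the values with each library left out, and coloured marks show the fits with length offsets. *Tnnt2* (3.73) and *Tpm2* (2.86) are the highest, and *Cald1*, *Myh6*, *Smtn* and *Tpm3* lie near 0.

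Offsets for transcript length in each library moved single members up or down. With the exon length of the gene, *Acta2* was at 1.98, *Myl9* at 1.82, *Tpm2* at 2.59 and *Tnnt2* at 4.04. The annotated exons of *Tnnt2* span 7752 bases but its coding transcripts have a median of 1104.5 bases, and with that length its fold change was 3.18. The long genes *Myh11*, *Mylk* and *Synpo2* moved upwards, *Myh11* to 1.77 and *Mylk* to 1.72 with the exon length, and *Synpo2* to 1.24. *Cald1* was at 0.54. *Myl6* was at 1.58 and 1.11 with exon and coding length, and *Tnni3* at 0.53 and 0.36, which is under the 1.5-fold threshold. Signs near 0 depended on the scaling: *Tpm4* was at -0.08 and *Tpm3* at 0.03 with the exon length, *Mylpf* at -0.03 and -0.15 with exon and coding length, *Myh6* at 0.20 and 0.37, and *Cald1* at -0.09 under library totals. Of the 4 group medians, that of the smooth muscle genes was 1.64 and 1.75 with the 2 kinds of length, and that of the cardiac and slow-fibre genes 0.71 and 0.59. No gene of the whole table was called by edgeR with either offset, although 3135 and 2790 genes had an unadjusted p below 0.05, and DESeq2 and limma voom were not run with offsets.

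Levels of different genes were compared per length, as CPM per kb of the median coding transcript. Among 6 actins, *Acta2* made up 33.3% and 29.8% of the summed level with INK128, against 7.7% and 15.8% in controls, and *Actg2* made up 5.49% and 5.45% against 1.38% and 3.68%. By this length the cytoplasmic *Actb* held the largest share in every library, at 44.1% and 52.2% against 60.3% and 48.1%. *Acta1* and *Actc1* together stayed under 1% throughout. Smooth muscle actins thus took a larger share of actin transcripts in the INK128 libraries, and the cytoplasmic *Actg1* a smaller one of 17.1% and 12.5% against 30.4% and 32.4%. With exon-union lengths *Acta2* held 42.1% and 38.5% against 11% and 21.4%, and it exceeded *Actb* (35.5%) in INK128 replicate 1.

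Among the 4 tropomyosins, *Tpm1* held 46.5% and 46.2% of the level per length with INK128 and 34.3% and 40.5% in controls. *Tpm2* held 27.8% and 26% against 6.54% and 9.41%. *Tpm3* and *Tpm4* correspondingly held less, *Tpm3* with 8.89% and 9.97% against 28.1% and 20.1%. The ranking of the tropomyosins turned with exon-union lengths, by which *Tpm2* was the largest with INK128 (39.1% and 36.6%, against 8.81% and 12.7%) and *Tpm4* in controls (56.1% and 54.4%), while *Tpm1* held 22.9% and 22.8% against 16.2% and 19.2%. Among myosin heavy chains, *Myh11* held 60.8% and 64.8% with INK128 against 22.7% and 37.2%, and the non-muscle *Myh9* 25.3% and 24.6% against 49.7% and 40.8%. By coding transcript length, the striated *Myh1*, *Myh2*, *Myh4*, *Myh6* and *Myh7* together held under 3% in every library. Other striated heavy chains were not part of this family. Control replicate 3 lay nearer to the INK128 libraries than control replicate 1 in the *Acta2*, *Tpm2* and *Myh11* shares.

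Of the 8 troponin subunits, *Tnnt2* held 42.6% and 43.1% of the level per length with INK128, against 6.95% and 12.8% in controls. *Tnni3* held 50.4% and 51.1% against 81.4% and 72.3%. The inhibitory subunit was thus the most abundant troponin transcript per length in all 4 libraries, and troponin C genes together held under 2% in each. With exon-union lengths the *Tnnt2* share was 19.4% with INK128 and 3.5% in controls (means of 2), so its size depends on the length used while the order of the groups does not.

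**Figure D3:**
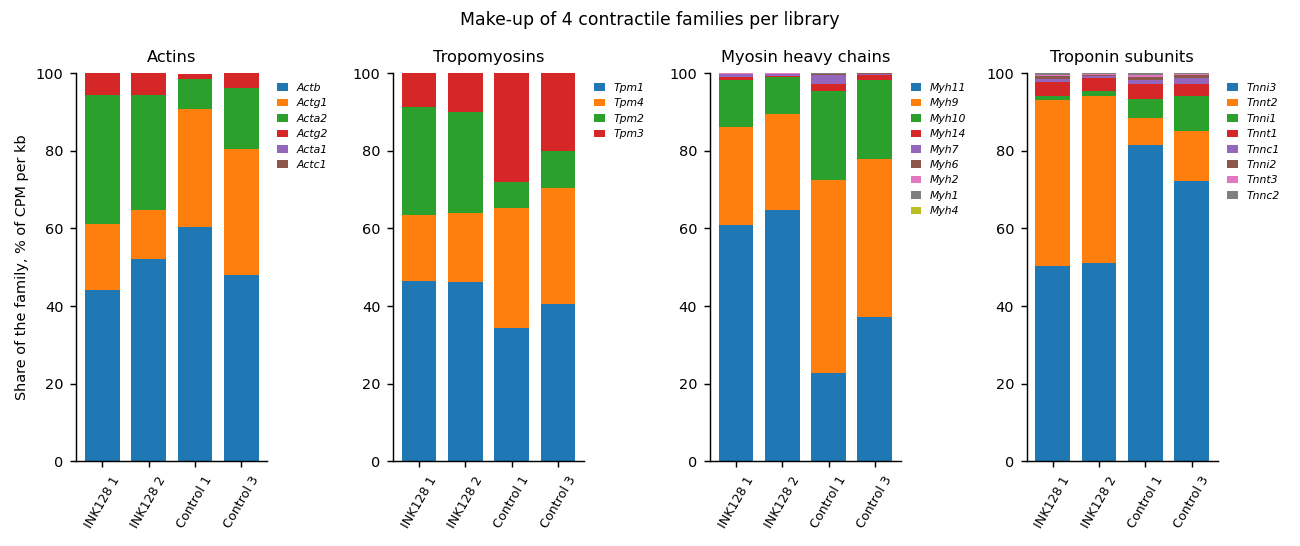
Share of each gene in the summed CPM per kb of its family (y axis, percent) in each library, for actins, tropomyosins, myosin heavy chains and troponin subunits. *Acta2*, *Tpm2*, *Myh11* and *Tnnt2* take larger shares in both INK128 libraries than in both controls.

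Some reads could not be assigned to a single member with certainty. *Tagln* shares 67.9% of its exon bases with counted neighbours (*Pcsk7* and *Gm48529*), *Pln* 64.7% (*Cep85l* and *Gm47644*) and *Tnnc2* 74% (*Ube2c*), and no strand setting of the counting was given in the sources used here. *Myh1*, *Myh2*, *Myh4*, *Myh6* and *Myh7* share between 18.9% and 26.9% of their 50-base windows with other myosin genes. *Tpm3* shares 17%, *Tpm4* 12.1% and *Myl6* 7.59%, mostly with pseudogenes, and *Myl1* 23.4%. *Tnnt2*, *Tpm2*, *Myl9* and *Cnn1* had neither exon overlap nor shared windows.

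Other genes of the contractile apparatus, which were not members, did not move as a block. Of 44 further smooth muscle genes, 3 were called higher and 2 lower. The 3 that rose were *Pdlim7* (107 and 138 CPM against 43.2 and 47, log2 fold change 1.44), *Pdlim3* (118 and 126 against 45.4 and 46.9, 1.40) and *Tgfb1i1* (178 and 220 against 96.2 and 79.6, 1.18), with adjusted p of 0.0464, 0.0464 and 0.0499 in edgeR. *Pdlim3* and *Pdlim7* encode PDZ-LIM proteins of actin filaments, and *Tgfb1i1* a focal adhesion adaptor. Among those that fell was *Pdlim5*, another PDZ-LIM gene (21.9 and 20.1 CPM against 71.9 and 69.5, log2 fold change -1.75, adjusted p = 0.0464 in edgeR). DESeq2 called 5 higher and 6 lower. The median over the 44 was 0.17, and 18 had both INK128 libraries above and 11 both below the controls, beside 30.9% and 35.3% of all genes with a mean CPM above 1. In the whole table edgeR called 3.18% of genes higher and 3.19% lower.

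Of 41 further sarcomere genes, 23 had a mean CPM above 1 and edgeR called 0, while 7 had an unadjusted p below 0.05 and DESeq2 called 4. Their median was 0.46. Of the 33 calcium handling genes in the table, *Itpr3*, an intracellular calcium release channel, fell (12.5 and 10.9 CPM against 29 and 33.5, log2 fold change -1.42, adjusted p = 0.0484 in edgeR) and none rose, with a median of -0.11 and DESeq2 calls of 0 higher and 2 lower. Among 37 non-muscle actomyosin genes *Rhoc*, a small GTPase, rose (192 and 235 CPM against 102 and 98.9, log2 fold change 1.09, adjusted p = 0.0487 in edgeR). *Rock2*, a kinase that raises myosin light chain phosphorylation, fell (56.4 and 56.7 CPM against 116 and 146, log2 fold change -1.21, adjusted p = 0.0464 in edgeR), and the median of that list was -0.08. With exon and coding transcript length offsets, at which edgeR called none of them, *Itpr3* was at -1.05 and -0.72, *Rhoc* at 0.56 and 0.50, and *Rock2* at -0.66 and -0.58, so that *Rhoc* and, with the coding length, *Rock2* lay under the 1.5-fold threshold. Without INK128 replicate 1 or without INK128 replicate 2, edgeR called 0 genes of any of these lists or of the whole table, with 1525 and 1338 genes of the table at an unadjusted p below 0.05.

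**Figure D4:**
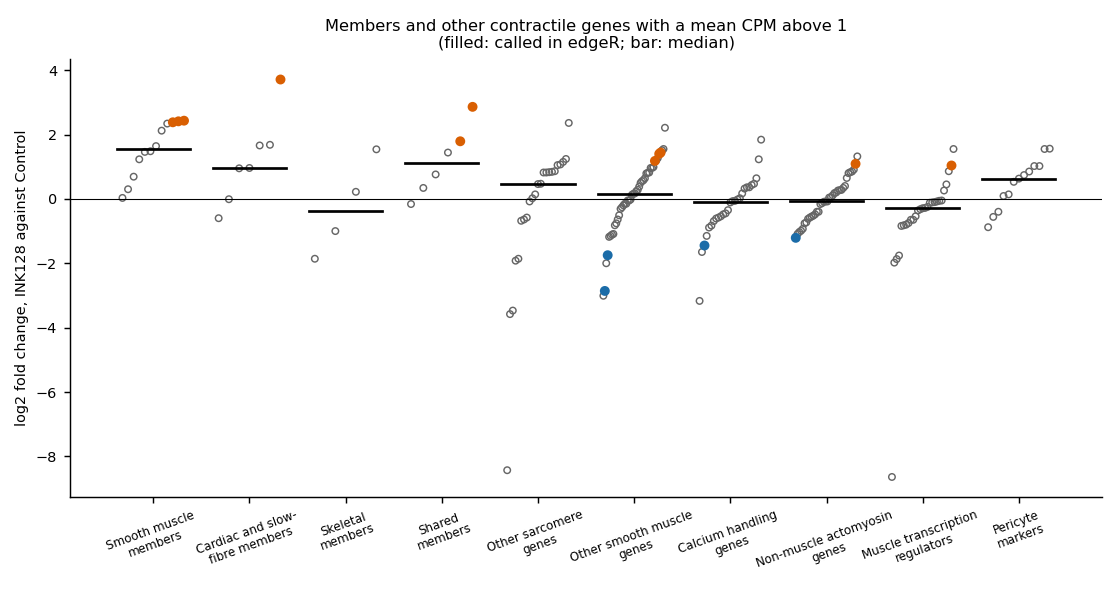
Log2 fold change (y axis) of every gene with a mean CPM above 1 in the member groups, 5 other contractile lists and the pericyte markers; filled points were called in edgeR and bars are medians. The medians run from 1.56 for smooth muscle members to -0.39 for skeletal members, beside 0.17 for other smooth muscle genes and 0.63 for pericyte markers.

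Of the transcription factors known to drive contractile genes, edgeR called none of SRF, its cofactors and the MEF2 factors, while DESeq2 called *Mkl2*, *Mef2a* and *Mef2c* lower. With exon length offsets these were at -0.48, -0.23 and -0.06, under the 1.5-fold threshold, and with coding transcript length offsets at -0.72, -0.57 and -0.47, where *Mkl2* stayed past it. Serum response factor, *Srf*, measured 57.4 and 49.2 CPM against 54.5 and 57 CPM (log2 fold change -0.06, adjusted p = 0.808 in edgeR). Its cofactor myocardin, *Myocd*, measured 3.33 and 5.84 CPM against 7.57 and 13.5 CPM (log2 fold change -1.15, adjusted p = 0.183 in edgeR). The myocardin-related factors, listed as *Mkl1* and *Mkl2*, had log2 fold changes of -0.25 and -0.84, and *Mef2a*, *Mef2c* and *Mef2d* of -0.80, -0.65 and -0.28, with adjusted p of 0.0597, 0.0783 and 0.379 in edgeR. *Mef2b* measured 6.17 and 8.65 CPM against 4.74 and 6.49 CPM, with overlapping groups (log2 fold change 0.45, adjusted p = 0.451 in edgeR). *Gata4* measured 252 and 267 CPM against 231 and 334 CPM. The striated muscle regulators *Myod1*, *Myog* and *Nkx2-5* had 0 counts in all 4 libraries, which allows up to 0.161 CPM in the shallowest. Other regulators of the list had a few counts, *Myf5* 4 and 12 against 1 and 12, and *Hand2* 13 and 7 against 68 and 14. *Wt1* measured 56.3 and 46.3 CPM against 311 and 64.6 CPM, and *Tbx18* was at 0 counts in both INK128 libraries against 4.65 and 0.0422 CPM, control replicate 1 being the high library in both. *Nr2f2*, an orphan nuclear receptor of mesenchymal and venous cells, was the only gene that edgeR called among the 39 regulators in the table (250 and 237 CPM against 113 and 122, log2 fold change 1.05, adjusted p = 0.0475 in edgeR). DESeq2 called 3 regulators higher and 5 lower. Of the TEAD factors, *Tead1* measured 61.7 and 46.2 CPM against 82 and 109 CPM and *Tead3* 28.9 and 32.3 CPM against 14.5 and 19.2 CPM, with adjusted p of 0.0942 and 0.0871 in edgeR, and DESeq2 called the first lower and the other higher. *Tead1* had a log2 fold change of -0.82, which was -0.28 with exon and -1.23 with coding transcript length offsets, and *Tead3* one of 0.86, which was 1.10 and 0.82. The list's median was -0.29, with 3 genes above and 12 below both controls.

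Marker genes of cells that express or neighbour contractile genes gave the following values. Pericyte markers summed to 458 and 491 CPM with INK128, between the 206 and 658 CPM of control replicates 1 and 3, and 0 of 13 were called by edgeR or DESeq2, with 2 at an unadjusted p below 0.05. Singly, 5 had both INK128 libraries above both controls and 1 both below, beside 30.9% and 35.3% of all genes with a mean CPM above 1. Their median log2 fold change was 0.63. *Mcam*, the marker with most reads, measured 111 and 139 CPM against 38.3 and 135 CPM. As in the smooth muscle members, control replicate 1 was the lowest library. Myofibroblast and matrix markers summed to 15195 and 13424 CPM against 12165 and 12258 CPM, with 0 of 15 called by edgeR (3 at an unadjusted p below 0.05), 1 higher and 1 lower by DESeq2, and *Col1a2* at 4112 and 3271 CPM against 2669 and 2932 CPM.

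Other cell types differed between the groups or between the controls. Kidney markers summed to 146 and 247 CPM against 885 and 1958 CPM, with *Slc34a1* at 7.03 and 22.4 CPM against 241 and 510 CPM. Of the 20, edgeR called 9 lower and DESeq2 15. Mesothelial and surface epithelial markers summed to 74.1 and 66.1 CPM against 218 and 183 CPM, with *Aldh1a2* at 15.8 and 15.4 CPM against 32.1 and 70.5 CPM and *Muc16* at 0 counts in both INK128 libraries; edgeR called 0 of 12, with 9 at an unadjusted p below 0.05 and 3 called lower by DESeq2. Immune markers summed to 406 and 373 CPM against 597 and 796 CPM, with *Lyz2* at 107 and 112 CPM against 171 and 276 CPM, and edgeR called 0 of 16, with 8 at an unadjusted p below 0.05 and 6 called lower by DESeq2. Endothelial markers summed to 761 and 881 CPM against 898 and 1077 CPM, with *Eng* at 143 and 161 CPM against 132 and 140 CPM. Of the 13, 3 had both INK128 libraries above both controls and 4 both below, beside 34.5% and 34% of genes above 10 CPM. edgeR and DESeq2 each called 2 lower. In edgeR these were *Kdr* (56 and 50.3 CPM against 166 and 142 CPM) and *Lyve1* (3.54 and 3.59 CPM against 60 and 70.7 CPM). All markers of these 4 lists were detected in at least 1 library.

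Markers of the gonadal lineages differed between the 2 controls. Granulosa markers summed to 8870 and 11202 CPM against 5108 and 10122 CPM, with *Inha* at 4067 and 5893 CPM against 1680 and 2858 CPM. *Inha* had the highest log2 fold change of the 13 (1.13), while 6 were positive and 7 negative, with a median of -0.02. In the theca and luteal list *Hsd3b1* measured 2018 and 2716 CPM against 433 and 4211 CPM. Of its 11 genes, 3 had both INK128 libraries above both controls and 1 both below. Among them *Cyp17a1* was at 354 and 422 CPM against 17 and 165 CPM, and *Star* at 134 and 168 CPM against 174 and 795 CPM. In the oocyte list *Gdf9* measured 454 and 264 CPM against 256 and 7.13 CPM, and in the Sertoli list *Cldn11* 89.9 and 74.7 CPM against 799 and 34.9 CPM. edgeR called 0 genes of the granulosa, theca and luteal, oocyte, Sertoli and Y-linked lists, with 1, 1, 0, 1 and 0 at an unadjusted p below 0.05, and DESeq2 called 1, 3, 0, 2 and 0. *Ddx3y*, the Y-linked gene with most reads, was at 20.1 CPM in control replicate 1 and 0 elsewhere. The part of these cell types in the contractile values was not tested, and with 2 libraries per group differences in cell make-up and differences in treatment cannot be told apart.

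**Figure D5:**
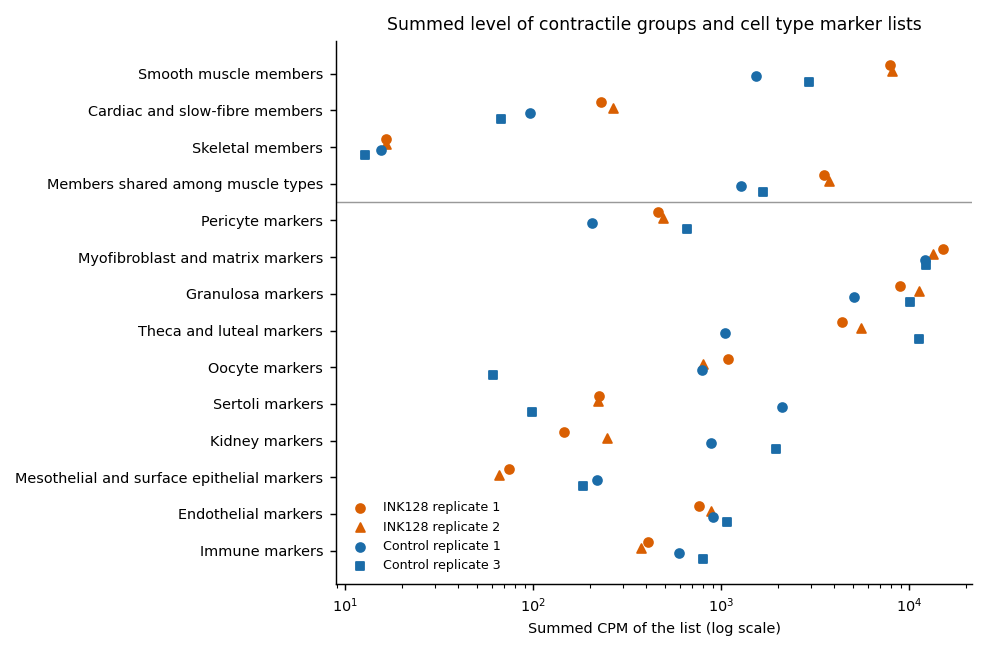
Summed CPM (x axis, log scale) of the 4 member groups and of 10 marker lists in each library. The smooth muscle members lie at 7928 and 8085 with INK128 and 1534 and 2921 in controls, whereas the INK128 values of the pericyte markers fall between the controls.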

How the data were processed

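RNA-seq of 4 rOvaries was analysed, 2 from INK128-treated recipients and 2 controls, grouped by the treatment label. According to the submitters' processing notes the authors used Trimmomatic, HISAT2 (genome build mm10) and featureCounts. The strand setting and versions were not given in the sources used here. The values the authors deposited are raw counts by gene symbol, 1 column per library. The members and the gene lists were chosen with earlier results of these data known.

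CPM were then derived using TMM factors of 0.97, 0.94, 1.05 and 1.04 (edgeR 4.0.16, R 4.3.3). Totals were 19130209, 23029089, 21585292 and 22812603 counts. edgeR's quasi-likelihood test (Benjamini-Hochberg adjusted p) was fitted to the 11758 genes averaging above 10 CPM, and genes between 1 and 10 were read from a second fit of 17631 genes. The study's thresholds for a call were kept (fold change over 1.5, adjusted p under 0.05). Standard errors came from the fold change and its F statistic. Named genes were all members, up to 5 called genes with the largest fold changes of each other contractile list, regulators listed by name, and the marker with most reads of each cell type list. *Muc16*, *Mef2b*, *Tead1*, *Tead3*, *Cyp17a1*, *Star*, *Kdr*, *Lyve1*, *Myf5* and *Hand2* were named after their values were seen. One called gene of the other smooth muscle list is not reported here.

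Positions and lengths came from GENCODE M21, in which 53447 of the 54021 symbols matched directly, and promoter windows from RefSeq (GRCm38.p6). *Myh11*, *Tagln*, *Tnni2*, *Actg2* and *Tnnt3* had no window in that table. Scripts were tested on simulated counts. Alternatives were DESeq2 1.42.0, limma 3.58.1 (voom), RLE factors, library totals, 3 other filters, length offsets and leaving out each library. Offsets from coding transcript length and family shares from exon-union length were added after seeing the data.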

Additional observations from a re-analysis of the deposited data

How the results depend on the processing

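The number of calls depended on the processing. Beside 374 genes called higher and 375 lower, DESeq2 called 1595 and 1772, requiring more than 10 CPM in 2 or more libraries gave 728 and 834, genes with at least 1 count gave 1152 and 1953, and library totals gave 290 higher and 580 lower. limma voom, the 17631 genes with a mean CPM above 1, and length offsets from exon or coding transcript length each gave 0 calls for the table and for the other smooth muscle, calcium handling, actomyosin and regulator lists, although between 2790 and 5797 genes had an unadjusted p below 0.05. With each library left out in turn, the calls ranged from 0 to 2664 higher and from 0 to 2723 lower, being 0 without INK128 replicate 1 and 0 without INK128 replicate 2, where the lowest adjusted p was 0.381 and 0.438 in edgeR. Leaving out a control raised the calls to at least 2493 higher and 2518 lower, with the lone control assumed to vary like the INK128 group. The called genes ranged from 0 to 14 in the other sarcomere list, 0 to 29 in the other smooth muscle list, 0 to 11 in the calcium handling list, 0 to 17 in the actomyosin list and 0 to 13 in the regulator list. In the same order DESeq2 called 4, 11, 2, 11 and 9, genes between 1 and 10 CPM included, and genes with at least 1 count gave 4, 8, 2, 6 and 4. The filter in at least 2 libraries gave 4 actomyosin genes, and library totals 0 regulators. Of the members, 6 were called higher, and limma voom, a mean CPM above 1 and both length offsets gave 0. More than 10 CPM in 2 or more libraries gave 10 of 20 members, beside 728 of 11881 genes. At least 1 count gave 14 of 43 members, beside 1152 of 31483 genes. DESeq2 gave 17 of 29, genes between 1 and 10 CPM included, beside 13.6% of the genes above 10 CPM. The median of the smooth muscle members ranged from 1.21 without control replicate 1 to 2.18 without control replicate 3. That of the cardiac and slow-fibre members was 2.33 over the 2 genes that passed in at least 2 libraries and 0.59 with coding transcript length offsets, and that of the shared members was 0.59 over all 8 genes with at least 1 count. No skeletal member passed the filter in at least 2 libraries. Regulators near 0 changed sign, *Srf* to 0.03 without INK128 replicate 2 (-0.19 without INK128 replicate 1), *Mkl1* to 0.07 and *Gata4* to 0.04 with coding transcript length offsets, and *Gata4* to 0.17 without control replicate 3 (-0.36 without control replicate 1). With exon-union in place of coding transcript length, 18 of the family shares moved by more than the spread between replicates and 8 did not. The causes were not tested. Of 368 alternative values for single members, 317 moved by less than the standard error and 51 by more. The coding transcript length offsets were chosen after seeing the data. Under library totals the median of all genes was -0.15, against -0.03. No paired analysis was possible because the groups share only replicate number 1.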
